A study of Mus musculus with 2 samples.

Results

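Messenger RNAs of cytosolic ribosomal proteins (RPs) are among the most abundant transcripts of a growing cell, and the cells described here are those with the smallest share of them. For each cell, the share was the percent of its unique molecular identifiers (UMIs, each standing for 1 captured mRNA molecule) on the 101 genes whose symbol starts with Rps or Rpl followed by a digit. Cells with at least 1000 detected genes, at most 5% mitochondrial (mt-) UMIs and at least 10000 UMIs were ranked by this share within their library, and the lowest 10% were taken. They were 219 of 2193 WT cells and 284 of 2843 cells in the library labelled S1/5 dKO, or 503 of 5036 cells in all, and are called RP-low cells. Each set was compared with the cells ranked between 40 and 60% in the same library, the middle cells, of which there were 438 and 568.

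The 2 libraries came from E14 mouse embryonic stem cells (mESCs), 1 from the parental line (WT) and 1 from *Smad1/5*-deficient cells (S1/5 dKO). The latter were made by CRISPR-Cas9 editing of the genes for SMAD1 and SMAD5, which carry BMP signals from the receptors to the nucleus. Both were grown without feeders on gelatin, in serum medium with LIF (SL, 15% FBS and 1000 U/ml LIF), and loaded on a droplet device with 3′ chemistry at a target of 3000 cells. The labels do not say which S1/5 dKO line was used or whether it was 1 clone, and with 1 library per genotype no test was made. All intervals are exact 95% intervals for counting error, and they say nothing of the spread between cultures.

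Ribosomal proteins are made in the cytoplasm, imported into the nucleus and joined to ribosomal RNA in the nucleolus, from where the subunits leave through nuclear pores. Their mRNAs are short, and share with those of many translation factors a pyrimidine-rich start through which mTORC1 and LARP1 control translation. Embryonic stem cells divide fast, and are known for an open chromatin that depends on remodelling ATPases and histone-modifying enzymes.

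The share of RP UMIs fell between 18.3 and 23.5% in the WT RP-low cells, with a median of 22.8%, against 25.4 to 26.4% and a median of 25.9% in the middle cells. In the library labelled S1/5 dKO, the RP-low cells lay between 16.5 and 22.9% (median 22.1%) and the middle cells between 24.8 and 25.8% (median 25.4%). These values chose the cells and are given as a description. There was no gap at the limit. In WT, the last cell inside had a share of 23.4704% and the first outside 23.4717%, and the corresponding values of the other library were 22.9060 and 22.9073%. Within 0.25 points of the limit lay 49 WT cells inside and 60 outside, and 56 and 87 cells labelled S1/5 dKO. A WT cell with a share at the limit and 40020 UMIs, the median of the RP-low cells, has a counting interval from 23.1 to 23.9%, which held 79 RP-low cells and 111 others. For the other library, the interval from 22.5 to 23.3% at 35602 UMIs held 92 RP-low cells and 136 others. RP-low cells are a range cut from a score and are not named as a cell type.

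**Figure D1:**
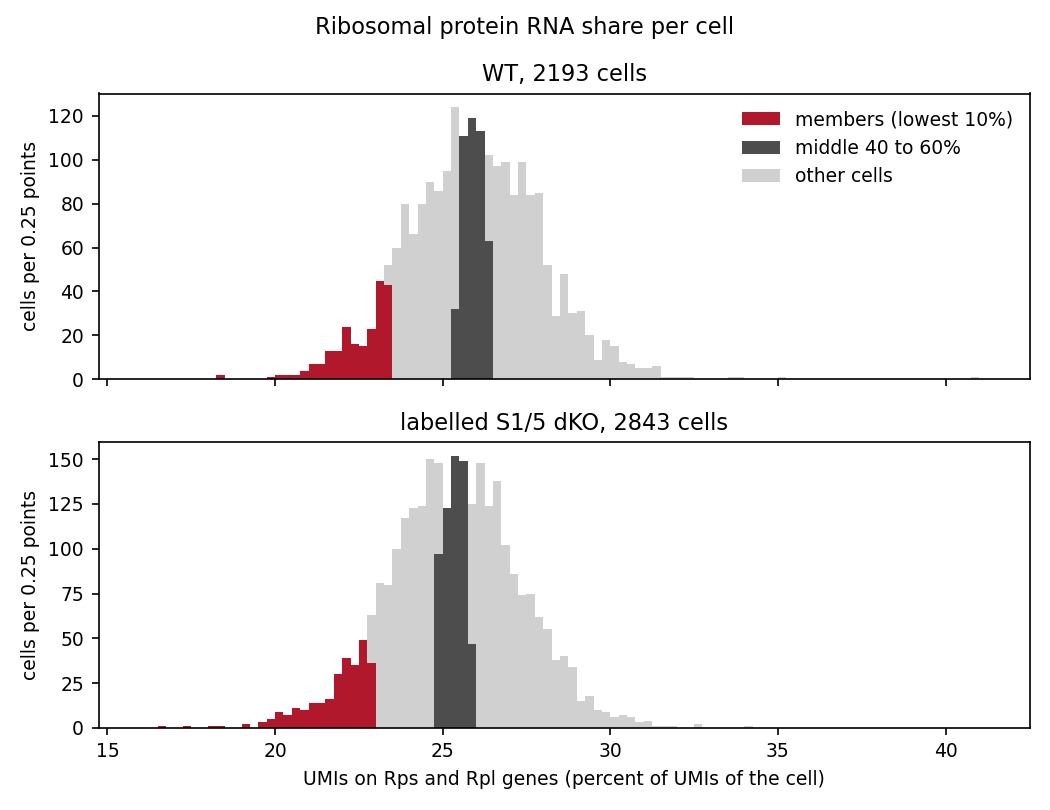
Ribosomal protein RNA share per cell, as percent of the UMIs of the cell (horizontal axis), and cells per 0.25 points (vertical axis), for the WT library (top) and the library labelled S1/5 dKO (bottom). Members, in red, are the RP-low cells (219 and 284), the middle cells are dark grey, and the red tail runs into the main peak without a gap.

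Most of the 80 genes of the score that carry a plain RP symbol and have at least 100 UMIs took part. Per 1000000 UMIs of the cells, 77 of them were lower in RP-low than in middle cells in both libraries and 0 were higher in both. Their median log2 ratio was −0.19 in WT and −0.21 in cells labelled S1/5 dKO. *Rpl19*, a large-subunit protein with the highest level among them, had a level of 10962 in WT RP-low cells and 12281 in WT middle cells, and 10400 and 11896 in the other library. The 3 exceptions, named after their values were seen, were *Rps27rt*, *Rpl10l* and *Rpl7l1*. The symbol rule also takes in genes that are not RPs, such as ribosomal S6 kinases. *Rps6ka6*, a kinase of this kind, had 26.2 in WT RP-low cells against 15.7 in middle cells, and 23.6 against 13.4 in the other library.

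A choice made on the small subunit alone could be read on the large one, whose UMIs it did not use. When the lowest 10% were taken by their Rps share, Rpl genes made up a median of 14.8% of the remaining UMIs in WT, against 16.9% in the middle cells of that choice. For cells labelled S1/5 dKO the medians were 14.2 and 16.5%. All 219 WT cells and all 284 cells of the other library lay below the median of their middle cells. Chosen by Rpl and read on Rps, 217 of 219 and 283 of 284 cells did so, with medians of 11.1 against 12.7% and 10.7 against 12.4%. Cells chosen by one subunit were thus also low in the other.

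Sequencing depth was similar in the groups compared. RP-low cells had a median of 40020 UMIs in WT (11032 to 176741), and middle cells 39776. For cells labelled S1/5 dKO the medians were 35602.5 (10895 to 94388) and 37052. In sum, 9577353 and 11173397 UMIs lie behind the RP-low cells of the libraries. The 2 libraries shared 0 barcodes among the scored cells. Barcodes with 10 to 100 UMIs, which hold free RNA, had RP shares of 23.0 and 22.9% and mt- shares of 9.35 and 9.48%. Of the barcodes left out because over 5% of their UMIs were mt-, 7 in WT and 8 in the other library had at least 10000 UMIs, and 7 and 6 of these had an RP share below the limit. What free RNA or leaking cells add to the RP-low cells was not tested. Per 1000000 UMIs outside the score (CPM), *Smad1* had 22.8 in WT RP-low cells and 12.3 in those labelled S1/5 dKO. *Smad5* had 10.6 and 12.9, so its mRNA was not lower in the second library. The counting interval of its log2 ratio, −0.15 to 0.71, spanned both signs, and these counts do not show whether SMAD5 protein was lost.

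RP-low cells had somewhat more mitochondrial RNA than middle cells and showed more different genes. Their median mt- share was 1.84% in WT and 2.02% in cells labelled S1/5 dKO, against 1.70 and 1.81% in middle cells. As a percent of the UMIs outside the score, the medians were closer, at 2.38 and 2.60% against 2.30 and 2.43% in middle cells. With every cell thinned to 10000 UMIs, the median RP-low cell showed 3004 genes in WT, with a range of 2691 to 3408, and 3012.5 genes under the S1/5 dKO label, with a range of 2734 to 3403. The middle cells showed 2772.5 (2561 to 3170) and 2772 (2502 to 3048), so the groups overlapped while the medians differed by 8.35 and 8.68%. Without thinning, RP-low cells had 5705 and 5483.5 genes, and middle cells 5324.5 and 5132. A cell with fewer RP UMIs has more room for other genes at a fixed depth. When only UMIs outside the score were counted and thinned to 5000, RP-low cells still had 2252 and 2252.5 genes and middle cells 2132 and 2122. Across all scored cells, the share and the number of genes at 10000 UMIs had a Pearson correlation of −0.80 over 2193 WT cells and −0.81 over 2843 cells labelled S1/5 dKO, where all cells of a library share its preparation. For genes outside the score at 5000 UMIs outside it, which do not depend on the RP share in this way, the correlations were −0.66 and −0.68.

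For single genes, levels are UMIs summed over the cells of a group as CPM outside the score, since a smaller RP share raises the share of every other gene. Of 8951 genes with at least 100 UMIs over RP-low and middle cells of each library, 2168 (24.2%) exceeded the middle cells by at least 25% in the RP-low cells of both libraries and are called higher, and 61 (0.681%) were lower by at least 20% in both and are called lower. This is a rule of size and not a test. The median log2 ratio of all these genes was 0.13 in WT and 0.14 in cells labelled S1/5 dKO, and values of gene lists are to be read against it. The split depends on the scaling. With TMM scaling, which brought the medians to −0.02 and −0.03, 1110 genes were higher and 656 lower, so that 62.9% of the called genes were higher, against 97.3% without it. The log2 ratios of the libraries had a Pearson correlation of 0.80 across the 8951 genes, which are not independent of each other, and 83.1% had the same sign in both.

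**Figure D2:**
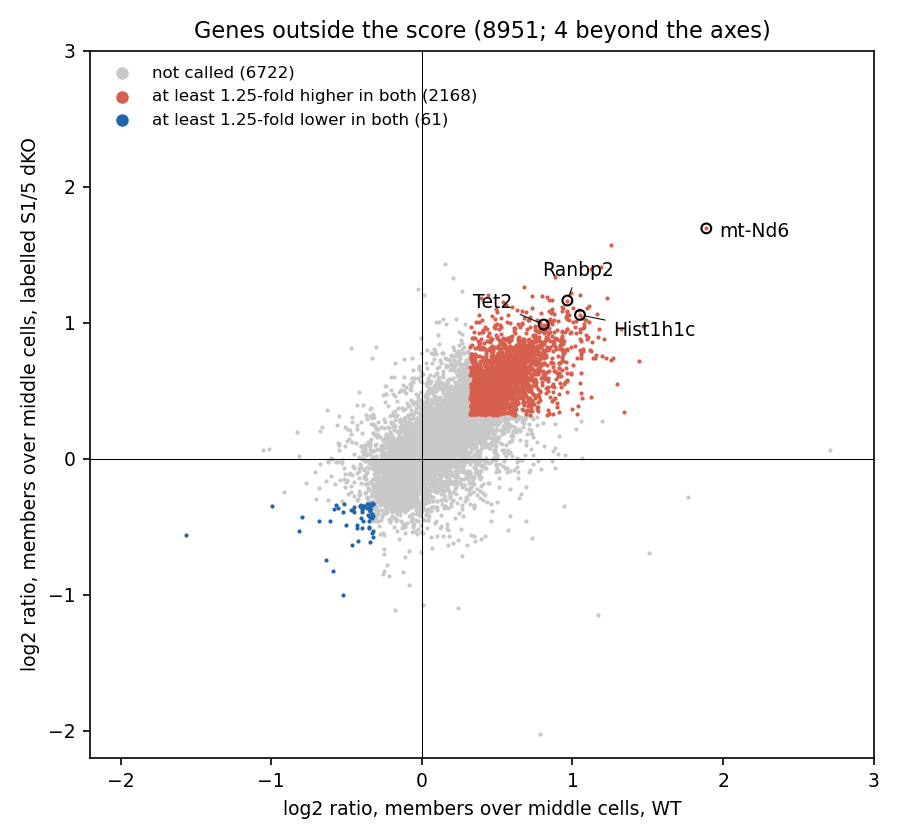
Log2 ratio of RP-low (members) over middle cells for 8951 genes outside the score, in WT (horizontal axis) and in the library labelled S1/5 dKO (vertical axis), with 4 genes beyond the axes. Each point is a gene, red points are the 2168 genes called higher and blue points the 61 called lower, and *mt-Nd6* lies farthest out among the circled genes.

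The 4 genes given as markers of these cells were higher in RP-low cells of both libraries. *mt-Nd6* (ENSMUSG00000064368, mitochondrial genome of mm10, 13552 to 14070) encodes a subunit of respiratory complex I. It had 156 UMIs, or 21.0 CPM, in WT RP-low cells against 5.66 CPM in middle cells (log2 ratio 1.89, 1.498 to 2.297), and 24.2 against 7.46 CPM in cells labelled S1/5 dKO (1.70, 1.37 to 2.03). *Ranbp2* (chromosome 10, 58446920 to 58494356), a protein of the cytoplasmic filaments of the nuclear pore, had 146 against 74.8 CPM in WT (0.97, 0.84 to 1.09) and 161 against 72.1 in the other library (1.16, 1.05 to 1.28). *Hist1h1c* (chromosome 13, 23738808 to 23740367), a linker histone, had 106 against 51.0 CPM (1.05, 0.90 to 1.20) and 104 against 50.01 (1.06, 0.92 to 1.19). *Tet2* (chromosome 3, 133463679 to 133545139), which oxidises methylated cytosine, had 90.7 against 51.8 CPM (0.81, 0.66 to 0.96) and 111 against 56.2 (0.99, 0.86 to 1.12). These markers were picked on this comparison, so their ratios describe the choice. The RP-low cell with the most UMIs held at most 3.85% of the UMIs of *mt-Nd6* and at most 2.75% of those of the other markers, so that no single cell carried the values.

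Among genes with at least 200 UMIs, the highest ratios after *mt-Nd6* and *Hist1h1c* belonged to *Tjp1*, *Adnp*, *Mdc1*, *Kat6a*, *Klhl11*, *Gm14401*, *Myof* and *Nynrin*, apart from a pair described with the 2-cell-like cells. *Tjp1* (chromosome 7, 65296165 to 65527781), which encodes the tight junction protein ZO-1, had 87.9 CPM in WT RP-low cells against 40.7 in middle cells, and 92.1 against 42.3 in cells labelled S1/5 dKO. The log2 ratios were 1.11 (0.95 to 1.27) and 1.12 (0.98 to 1.27). *Adnp*, a homeobox protein that works with the remodeller CHD4, had log2 ratios of 1.16 and 1.06. *Mdc1*, a scaffold of the DNA damage response, had 39.9 against 18.8 CPM in WT and 39.1 against 19.3 in the other library. *Kat6a*, a histone acetyltransferase, had 45.8 against 22.5 CPM and 53.2 against 26.3. All of these genes were about as much higher in the one library as in the other, with log2 ratios from 1.01 to 1.21. They were ranked by the smaller of the 2 library ratios, so high values in both follow from the choice.

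The 12 genes with the lowest ratios were led by *Rhox5*, an X-linked homeobox gene (chromosome X, 37804842 to 37808876). It had 8.63 CPM in WT RP-low cells against 25.7 in middle cells (log2 ratio −1.57, −1.98 to −1.19), and 16.9 against 25.1 in cells labelled S1/5 dKO (−0.57, −0.85 to −0.29). Its UMIs were held by few cells, 21 of 219 and 30 of 284 RP-low cells, and 1 WT cell had 28.1% of those in the WT RP-low cells. *Ciart*, a repressor of the circadian clock, had log2 ratios of −0.83 and −0.54. Better covered were *Bex4*, with 507 against 698 CPM in WT and 516 against 671 in the other library (log2 ratios −0.46 and −0.38), and *Bbc3*, the pro-apoptotic p53 target PUMA, with 31.5 against 42.5 and 29.2 against 41.0 CPM. *Gstp1*, a glutathione transferase, had log2 ratios of −0.47 and −0.38. The remaining 7 of the 12 (*Arl5c*, *Azin2*, *Gm10053*, *Gm9493*, *Mttp*, *Mospd3* and *1110012L19Rik*) had log2 ratios between −0.64 and −0.39.

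RP genes that the symbol rule missed were lower as well. The 6 of them, with *Rpsa* and *Rplp0* the most abundant, summed to 23766 CPM in WT RP-low cells against 28156 in middle cells, a log2 ratio of −0.24 (−0.25 to −0.24). For cells labelled S1/5 dKO the sums were 22201 and 26816, a log2 ratio of −0.27 (−0.28 to −0.26). *Rpsa*, a protein of the small subunit, was the lowest of them, with log2 ratios of −0.31 and −0.36. None of the 6 was called.

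Translation factors and related mRNAs with the same kind of start had a summed log2 ratio of −0.19 over 20 genes in both libraries, with 0 called lower. *Eef1a1*, the elongation factor that brings aminoacyl-tRNA to the ribosome, had 5849 against 7236 CPM in WT and 5818 against 7001 in cells labelled S1/5 dKO. *Eef1b2*, its exchange factor, had log2 ratios of −0.28 and −0.27, and *Rack1*, a scaffold on the small subunit, −0.25 and −0.26. On the other side, 2 of the 20 were called higher, *Eif4b* (0.48 and 0.54) and *Eif2s3x* (0.45 and 0.45), both initiation factors. *Pabpc1*, the poly(A)-binding protein, was higher by less, with 939 against 765 CPM in WT and 977 against 751 in the other library.

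Ribosome production and mTORC1 genes also held both directions. Of 25 genes of ribosome biogenesis, 7 (28%) were called higher and 0 lower, against 24.2% of all genes. *Polr1a*, the largest subunit of RNA polymerase I, had log2 ratios of 0.64 and 0.53, *Ubtf*, which activates that polymerase, 0.54 and 0.59, and *Utp20*, a processing factor, 0.63 and 0.56. *Ncl*, the nucleolar protein nucleolin, had 3820 against 2974 CPM in WT and 4007 against 3143 in cells labelled S1/5 dKO. *Npm1*, the most abundant of the list, had ratios of −0.10 and −0.11. *Eif4ebp1*, which encodes a translation repressor inactivated by mTORC1, was lower, with 877 against 1128 CPM in WT and 867 against 1117 in the other library. *Larp1*, which binds RP mRNAs, was higher, with 150 against 93.6 and 155 against 104 CPM. Transcripts on the 4 genes that can hold ribosomal RNA reads summed to log2 ratios of 0.14 and 0.11, which fell to −0.01 and −0.06 with TMM scaling.

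Sums over the nuclear respiratory chain, the proteasome and the mitochondrial ribosome had ratios below 0 but short of those of the RPs, and 1 of their genes was called lower. The 26 nuclear genes of the respiratory chain summed to 20843 CPM in WT RP-low cells against 23652 in middle cells (log2 ratio −0.18, −0.19 to −0.17), and to a log2 ratio of −0.20 in cells labelled S1/5 dKO, with 0 of 26 called. *Cox4i1*, a subunit of cytochrome c oxidase, had 2044 against 2515 and 1803 against 2342 CPM. The 17 proteasome genes had summed log2 ratios of −0.18 and −0.24, with 0 of 17 called and *Psmb3* lowest (−0.26 and −0.34). For the 78 genes of the mitochondrial ribosome the ratios were −0.15 and −0.18, and 1 of the 77 that could be called, *Mrpl37*, was called lower. Glycolysis genes had ratios of −0.10 and −0.15, although *Slc2a3*, a glucose transporter, and *Hk1*, a hexokinase, were higher in both libraries.

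The mitochondrial genome did not follow its nuclear partners. Transcripts of its heavy strand, 12 genes, summed to 24179 CPM in WT RP-low cells against 23458 in middle cells (log2 ratio 0.04, 0.04 to 0.05) and to 26513 against 24290 in cells labelled S1/5 dKO (0.13, 0.12 to 0.13). With TMM scaling these values were −0.11 and −0.05. The abundant *mt-Atp6*, *mt-Co2*, *mt-Co3* and *mt-Cytb* lay between −0.08 and 0.18. Higher ratios were found for *mt-Nd4l* (0.64 and 0.83), *mt-Nd5* (0.62 and 0.73) and *mt-Atp8* (0.59 and 0.59). *mt-Nd6*, the only protein gene read from the light strand, stood apart from all of these at 1.89 and 1.70. It lies opposite the heavy-strand transcript, and the sources used here do not state how strand was used in counting.

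Long RNAs that stay in the nucleus were higher in RP-low cells of both libraries. Over 9 genes, RP-low cells had 2961 CPM in WT against 1712 in middle cells (log2 ratio 0.79, 0.76 to 0.82) and 3125 against 1820 in cells labelled S1/5 dKO (0.78, 0.76 to 0.80). *Malat1*, a long RNA of nuclear speckles, made up most of it, with 2353 against 1325 CPM and 2431 against 1376. *Kcnq1ot1*, the RNA that silences an imprinted domain, had 237 against 112 and 269 against 138 CPM, although it lies opposite *Kcnq1* and strand use in counting is not stated, and *Neat1*, the scaffold of paraspeckles, 51.6 against 32.4 and 51.5 against 31.2. *Meg3* had log2 ratios of 0.45 and 0.43. Without *Malat1*, the rest of the list had 0.65 and 0.64. Of the 6 genes that could be called, 5 were called higher, against 24.2% of all genes. Per cell, 187 of 219 WT RP-low cells and 250 of 284 of the other library lay above the median of their middle cells. The groups overlapped, from 0.923 to 78.7 UMIs per 10000 outside the score in WT RP-low cells and from 1.66 to 65.8 in WT middle cells.

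As sums, linker histones were higher and core histones were not. The 7 linker histone genes summed to 1609 against 1032 CPM in WT and 1763 against 1128 in cells labelled S1/5 dKO, a log2 ratio of 0.64 in both. All 5 genes of the Hist1 cluster in the list were called higher, *Hist1h1a* (0.88 and 0.93), *Hist1h1b* (0.62 and 0.63), *Hist1h1c*, *Hist1h1d* (1.01 and 1.01) and *Hist1h1e* (0.76 and 0.74). *H1fx*, a linker histone encoded elsewhere, had −0.14 and −0.25. For the 19 core histone genes the summed ratio was −0.05 and −0.06, and 2 of the 10 that could be called, *Hist2h2aa1* and *Hist2h2ac*, were higher. The median log2 ratio of those 10 genes was 0.24 in WT and 0.22 in the other library, against 0.13 and 0.14 for all genes. Most of these histone mRNAs end in a stem-loop without a poly(A) tail and are poorly caught by oligo(dT), and genes of 1 cluster are so alike that reads can be lost or split between them. Cells differed widely, with 138 of 219 and 183 of 284 RP-low cells above the middle median of linker histones.

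Most chromatin remodellers, which move or evict nucleosomes, were higher. Of 25 chromatin remodellers, 19 were called higher and 0 lower, against 24.2 and 0.681% of all genes, and together they had 3522 against 2378 CPM in WT (log2 ratio 0.57, 0.54 to 0.59) and 3555 against 2304 in cells labelled S1/5 dKO (0.63, 0.60 to 0.65). *Smarca5*, the ATPase of ISWI complexes, had 941 against 644 and 988 against 617 CPM. *Chd4*, the ATPase of the NuRD complex, had log2 ratios of 0.68 and 0.67, *Smarcc1*, a core subunit of the BAF complex, 0.68 and 0.74, *Baz1b* 0.81 and 0.84, and *Srcap* 0.84 and 0.96. Counted by cell, 207 of 219 WT RP-low cells and 275 of 284 of the other library lay above their middle median.

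Of the histone methyltransferases and demethylases, 21 of 25 were called higher, against 24.2% of all genes. Their sums were 1989 against 1456 CPM (log2 ratio 0.45, 0.42 to 0.48) and 1973 against 1380 (0.52, 0.49 to 0.54). The H3K4 methyltransferases *Kmt2a* (0.82 and 0.76), *Kmt2c* (0.83 and 0.94) and *Kmt2d* (0.73 and 1.20) were among the highest. *Kdm3b*, an H3K9 demethylase, had 49.7 against 29.1 and 47.9 against 25.1 CPM, and *Nsd1*, an H3K36 methyltransferase, 241.5 against 158 and 236 against 144. *Kdm1a*, the H3K4 demethylase named in the title of the study, had 226 against 176 CPM in WT and 226 against 163 in cells labelled S1/5 dKO. In the DNA methylation list, 7 of 10 genes were called higher (24.2% of all genes). Its summed log2 ratios of 0.21 and 0.24 came to 0.06 in both libraries with TMM scaling. Beside *Tet2*, *Tet1* had 331 against 206 and 337 against 208 CPM, the maintenance methyltransferase *Dnmt1* had log2 ratios of 0.48 and 0.59, and the de novo enzymes *Dnmt3a* and *Dnmt3b* had 0.53 and 0.66, and 0.55 and 0.59. *Trim28*, the abundant corepressor of zinc finger proteins, had −0.02 and −0.03.

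Genes named Zfp were taken by their symbol alone, and many encode zinc finger proteins that bind DNA. They were called higher in 95 of 222 cases, against 24.2% of all genes, and 1, *Zfp524*, named after its value was seen, was lower. Their summed log2 ratios were 0.22 and 0.25, or 0.07 and 0.08 with TMM scaling. *Zfp990* had 300 against 183 CPM in WT and 358 against 221 in the other library, while *Zfp42*, the pluripotency marker REX1, had 0.01 and 0.03.

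Nuclear pore genes were called higher in 12 of 22 cases, against 24.2% of all genes. Beside *Ranbp2*, the nuclear basket protein *Tpr* had 614 against 466 and 641 against 484 CPM, *Ahctf1*, which seeds pore assembly on chromatin, had log2 ratios of 0.73 and 0.87, and *Nup98* had 0.68 and 0.72. The small *Nup43* and *Nup37*, both of the outer ring, were on the other side, at −0.29 and −0.21, and −0.13 and −0.22. Of 20 cohesin, condensin and related genes, 13 were called higher (24.2% of all genes), with summed ratios of 0.34 and 0.36. *Stag2*, a cohesin subunit, had 41.6 against 25.8 CPM in WT and 52.4 against 24.9 in cells labelled S1/5 dKO, and *Wapl*, which releases cohesin, 208 against 133 and 206 against 124.

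RNA decay and splicing genes were read against the same 24.2% of all genes. In a list of 11 genes of nonsense-mediated and other mRNA decay, 8 were called higher, with summed ratios of 0.39 (0.34 to 0.43) and 0.35 (0.31 to 0.40). *Smg1*, the kinase of that pathway, had 35.7 against 18.7 and 33.2 against 17.4 CPM. *Upf1*, its helicase, had log2 ratios of 0.67 and 0.60. Of 25 splicing genes, 8 were called higher, and the sums had ratios of 0.12 and 0.18, which TMM scaling brought to −0.03 and 0.00. *Srsf1*, *Ddx5* and *Ddx17* were higher (0.61 and 0.75, 0.39 and 0.49, 0.65 and 0.68), whereas *Srsf3* and *Srsf7* had log2 ratios from −0.12 to −0.11.

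By their sums, 11 of 41 gene lists were at least 25% higher in both libraries and 0 at least 20% lower. The 11 include the primitive endoderm genes and the list grouped with *Sp5*. The lists were chosen with earlier results of these data known, so their count describes that choice. The *mt-Nd6* list is 1 gene, a marker picked on this comparison. Linker histones and nuclear pore genes hold the markers *Hist1h1c* and *Ranbp2*. The 2-cell-like value rests on few cells, and the *Sp5* value fell to 0.02 in WT without cells with *Krt8* and *Krt18*. With TMM scaling 4 lists were lower in place of 0, RPs outside the score, translation factors, the nuclear respiratory chain and the proteasome, and 5 remained higher, the nuclear-retained RNAs, linker histones, chromatin remodellers, *mt-Nd6* and the 2-cell-like genes. The histone methyltransferases and demethylases then had 0.30 and 0.34, nuclear pore genes 0.18 in both libraries, cohesin and condensin genes 0.19 in both and RNA decay genes 0.24 and 0.18.

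**Figure D3:**
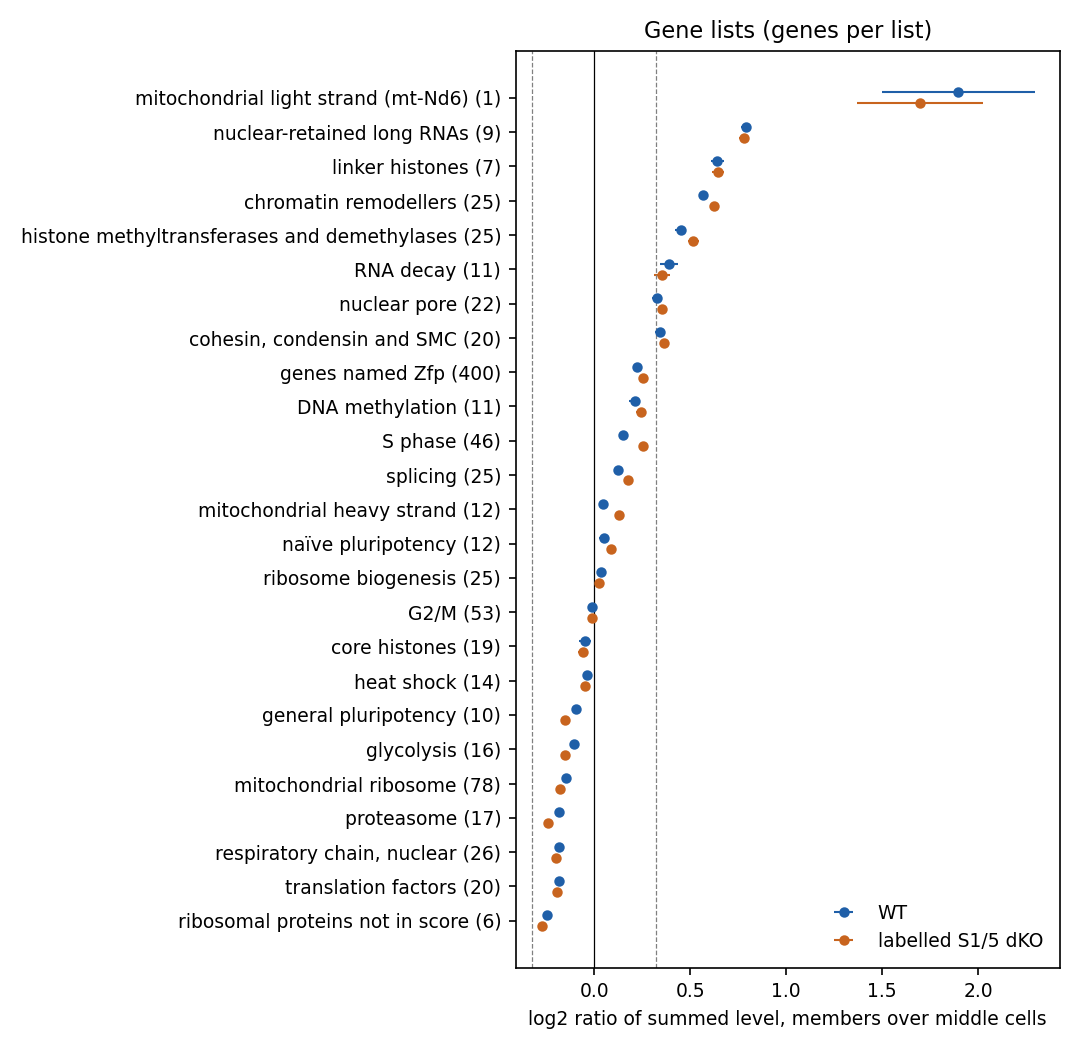
Log2 ratio of the summed level of 25 gene lists in RP-low (members) over middle cells, with exact 95% counting intervals, for WT (blue) and the library labelled S1/5 dKO (orange), and the number of genes per list in brackets. Dashed lines mark 25% higher and 20% lower, and the lists run from *mt-Nd6* (1.89 and 1.70) to RPs outside the score (−0.24 and −0.27).

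S-phase genes were somewhat higher and G2/M genes were not, as sums. The 46 S-phase genes summed to 7798 against 7033 CPM in WT (log2 ratio 0.15, 0.13 to 0.16) and to 8403 against 7037 in cells labelled S1/5 dKO (0.26, 0.24 to 0.27), with 18 called higher, against 24.2% of all genes. TMM scaling gave 0.00 and 0.08. *Hells*, a helicase of replicating chromatin, had 544 against 423 and 601 against 464 CPM, and *Pola1*, a subunit of the priming polymerase, had log2 ratios of 0.64 and 0.62. *Gmnn*, which blocks re-replication, had −0.22 and −0.10. For 53 G2/M genes the summed ratio was −0.01 in both libraries, and 18 of them were called higher, against 24.2% of all genes. The long *Mki67* (0.81 and 0.97), *Ect2* (0.74 and 0.80) and *Kif11* (0.68 and 0.67) were higher, and the short *Ube2c* (−0.24 and −0.28) and *Cks2* (−0.18 and −0.25) were on the other side. Across all cells, the RP share had Pearson correlations of −0.38 (WT, n = 2193) and −0.45 (n = 2843) with the S-phase list and of 0.00 and 0.02 with the G2/M list. Middle cells weighted to the RP-low cells by both lists gave 2096 genes higher and 46 lower.

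RP-low cells expressed the pluripotency genes of mESCs at levels close to those of middle cells. *Pou5f1*, the master regulator OCT4, had 1611 against 1785 CPM in WT and 1544 against 1733 in cells labelled S1/5 dKO, and *Sox2* 395 against 318 and 385 against 313. The 10 general pluripotency genes summed to log2 ratios of −0.10 and −0.15, and the 12 naïve ones to 0.05 and 0.09, or −0.10 and −0.09 with TMM scaling. *Tfcp2l1*, *Esrrb* and *Tbx3*, transcription factors of the naïve state, were called higher, with 89.9 against 62.6, 74.5 against 56.3 and 101 against 77.1 CPM in WT. *Dppa3*, a gene of the most naïve cells and of germ cells, was called lower, with 3.10 against 5.45 CPM in WT and 4.58 against 6.21 in the other library, on 23 and 40 UMIs in the RP-low cells. In the general list 3 of 10 genes were called higher, near the 24.2% of all genes, among them *Lin28a* (0.46 and 0.58) and *Sall4* (0.38 and 0.38).

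Some lists of other cell types rested on few cells and others did not. A 2-cell-like cell resembles the 2-cell embryo and expresses *Zscan4* and related genes. The 16 genes of that list in the files had 824 UMIs in WT RP-low cells, of which 820 were in 1 cell, and 998 in those labelled S1/5 dKO, of which 988 were in 3 cells. The summed log2 ratios of 7.65 and 7.91 therefore rest on 4 cells. Without cells that had at least 10 UMIs on the list, the WT value was −0.02, a fall that follows from removing cells by this list. In the other library, the lowest value over the alternatives run was 1.27. Middle cells had 8 UMIs on the list in each library. The same cells gave *Gm21761* (84.1 against 0.207 CPM in WT, 66.1 against 0.237 in the other library) and *Gm5039* (30.7 against 0.138, 41.9 against 0.178) their places at the head of the ratios. Across all scored cells, 4 in WT and 5 in the other library met that limit, and the 4 in WT lay at percentiles 7.84, 31.6, 82.6 and 99.7 of the RP share. In the other library they lay at 0.141, 0.422, 8.13, 14.7 and 19.6. These genes belong to families of near-identical copies, so their values are uncertain.

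Keratin transcripts, of early trophoblast and other epithelia, were seen in a few WT cells. *Krt8* had 52.97 CPM in WT RP-low cells against 15.5 in middle cells, and *Krt18* 35.9 against 5.45, but 4 of the 219 cells held 474 of their 659 UMIs. For cells labelled S1/5 dKO, *Krt8* had 11.7 against 14.3 CPM, and 0 RP-low cells had 20 UMIs or more on the pair. *Tagln*, an actin-binding protein, had 52.6 against 25.1 CPM in WT and 27.7 against 15.98 in the other library, but the same 4 WT cells held 259 of its 390 UMIs. Without cells that had at least 20 UMIs on the keratin pair, its WT log2 ratio was −0.53 and that of the other library 0.80. *Tagln* belongs to a list of 7 genes grouped with *Sp5*, whose summed log2 ratios of 0.64 and 0.41 came to 0.02 and 0.41 without those cells. Fibroblast genes reached 8.09 CPM in sum, and 8 of 8 had too few UMIs to be called. The 12 primitive endoderm genes summed to 67.5 against 45.6 CPM in WT and 42.9 against 31.0 in the other library, led by *Lama1* and *Col4a1*, with 9 of the 12 too low to be called. The median cell had 0.579 against 0.373 UMIs per 10000 outside the score in WT, and 0.330 against 0.198 in the other library. These are few UMIs per cell, and the groups overlapped. The summed log2 ratios were 0.57 and 0.47, and 1 of the 3 genes that could be called was higher. Mesoderm genes summed to 5.39 and 3.21 CPM, against 4.70 and 2.90 in middle cells. The 8 neural genes summed to 204 and 212 CPM, against 223 and 230.2 in middle cells, and 1 of 3 that could be called was higher, *Nes*, an intermediate filament, with log2 ratios of 0.64 and 0.99.

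Imprinted and BMP pathway genes gave mixed values. Of 12 imprinted genes that could be called, 4 were higher, *Meg3* and 3 others, not far from the 24.2% of all genes. *Peg3*, a zinc finger gene, had 29.9 against 13.7 CPM in WT and 52.8 against 29.1 in cells labelled S1/5 dKO, *Peg10* had 54.7 against 30.1 and 126 against 67.3, and *Zrsr1* had log2 ratios of 0.77 and 0.66. In the BMP list 2 of 9 genes were called higher, close to the share of all genes, the receptors *Bmpr1a* (0.41 and 0.57) and *Bmpr2* (0.89 and 0.45), both at low levels. The list summed to log2 ratios of 0.21 and 0.08, the second of which TMM scaling turned to −0.09. Formative genes summed to 0.18 and 0.09, or 0.03 and −0.09 with TMM scaling, and *Dnmt3b* was the only one of 7 called.

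Stress genes differed little. The 16 genes of ER stress had summed log2 ratios of 0.14 and 0.17, with *Hspa5*, the ER chaperone BiP, at 362 against 291 CPM in WT and 333.5 against 249.8 in cells labelled S1/5 dKO. The ATF4 list had −0.09 in both libraries, the p53 targets −0.10 and −0.13, and the immediate early genes 0.02 and 0.00. Heat shock genes had −0.04 and −0.05 in sum, but *Hspa4* (0.72 and 0.76) and *Hsph1* (0.58 and 0.71), which encode large HSP110-type chaperones, were called higher. TMM scaling turned the ER stress values to −0.01 and 0.00.

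Chromatin remodellers and some other lists changed by degrees along the range of the RP share, and the G2/M list did not. With the cells of each library cut into 10 equal groups by the share (1 being the RP-low cells), chromatin remodellers had log2 ratios to the middle cells of 0.57, 0.41, 0.24 and 0.12 in groups 1 to 4 of WT, and −0.19, −0.28 and −0.36 in groups 8 to 10. For cells labelled S1/5 dKO the first 4 values were 0.63, 0.38, 0.25 and 0.12, and the last 3 were −0.22, −0.32 and −0.39. From group 1 to 10, histone methyltransferases and demethylases went from 0.45 to −0.31 in WT and from 0.52 to −0.31 in the other library. *Tet2* went from 90.7 CPM in group 1 of WT to 37.5 in group 9 and 41.51 in group 10, and from 111 to 40.02 and 40.7 in the other library. *Malat1* went from 2353 to 945 and 1079 CPM, and from 2431 to 1127 and 1184, so group 10 was not the lowest. RPs outside the score went the other way, from −0.24 to 0.22 and from −0.27 to 0.20. The G2/M list stayed between −0.04 and 0.03 in all groups of both libraries. Linker histones in WT had 0.64, 0.41, 0.20 and 0.24 in groups 1 to 4 and between −0.10 and 0.01 in groups 5 to 10. For cells labelled S1/5 dKO they had 0.64, 0.31, 0.27 and 0.07 in groups 1 to 4. In groups 7 to 10 of that library they lay between −0.22 and −0.12. Ribosome biogenesis genes lay between −0.04 and 0.05 in WT and between −0.09 and 0.02 in cells labelled S1/5 dKO.

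**Figure D4:**
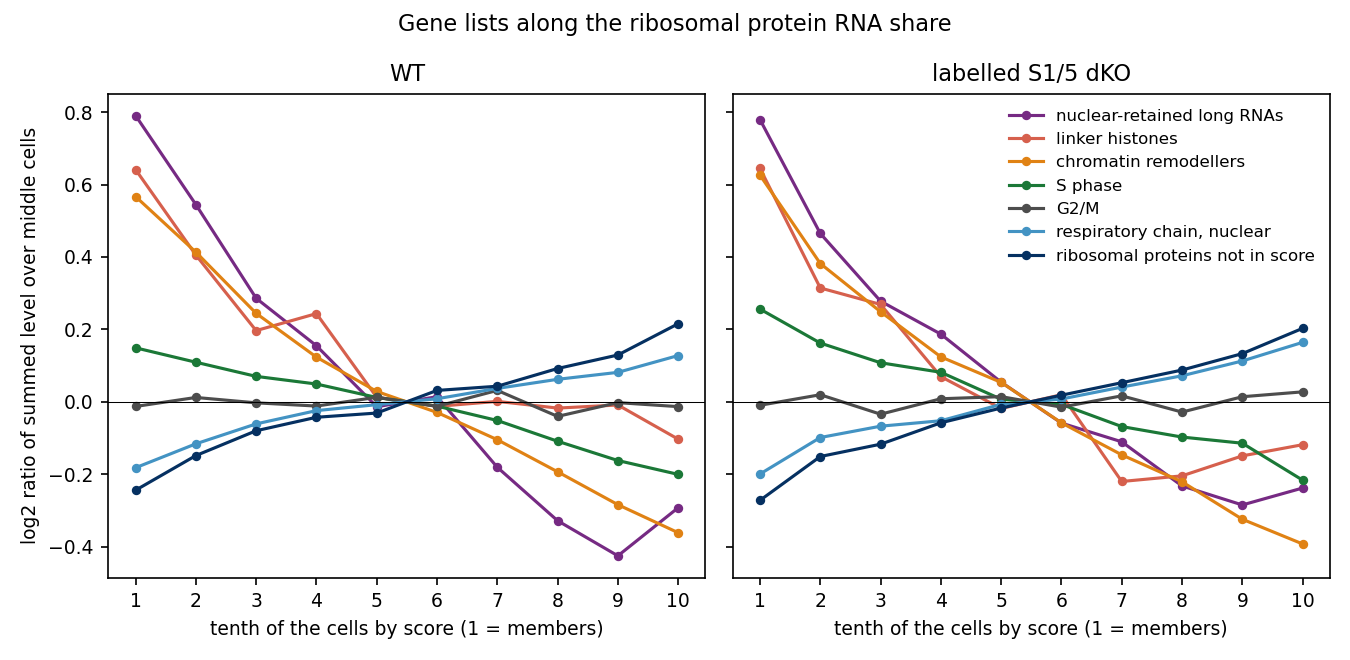
Log2 ratio of the summed level of 7 gene lists over the middle cells (vertical axis) in each of 10 groups of cells by RP share (horizontal axis, 1 being the RP-low cells, called members), for WT (left) and the library labelled S1/5 dKO (right). Nuclear-retained RNAs and chromatin remodellers are highest in group 1 and below 0 at the other end, RPs outside the score climb from −0.24 and −0.27 to 0.22 and 0.20, and G2/M genes stay within 0.04 of 0.

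Within the RP-low cells, remodellers had higher values in the cells with the lowest share, and some other lists were also ordered in both libraries. Histone methyltransferases and demethylases had 0.57, 0.43 and 0.34 from the lowest to the highest share in WT, and 0.61, 0.48 and 0.44 in the other library. Linker histones lacked this order in WT, and nuclear-retained RNAs lacked it in the other library. The 73 WT cells with the lowest RP share (18.3 to 22.2%) had log2 ratios to the middle cells of 0.70 for chromatin remodellers and 1.08 for nuclear-retained RNAs, against 0.40 and 0.47 in the 73 next to the limit. Linker histones had 0.61, 0.82 and 0.47 from the lowest to the highest group of WT RP-low cells. For cells labelled S1/5 dKO, remodellers had 0.73 in the lowest 94 cells and 0.55 in the 95 next to the limit, while nuclear-retained RNAs had 0.76, 0.82 and 0.75 from the lowest to the highest group. The median mt- share was 1.92% in the lowest WT cells and 1.74% in those next to the limit, and 2.16 and 1.93% in the other library. At 10000 UMIs, the median cell of the lowest group had 3061 genes in WT and 3104.5 in the other library, and that next to the limit 2952 and 2959.

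The genes that were higher had long mRNAs. The longest basic transcript in the annotation had a median length of 4856 nt for the 2168 genes called higher, 1530 nt for the 61 called lower and 2966 nt for all genes tested. With genes cut into 5 equal groups by this length, the share called higher went from 2.12% (median 1210 nt) through 4.25, 19.2 and 37.1 to 58.4% (median 6606 nt). The median log2 ratio went from −0.12 to 0.44 in WT and from −0.15 to 0.49 in cells labelled S1/5 dKO. The 24.2% set beside the gene lists is the share over all genes, and the lists were not compared with genes of like length. What mRNA length adds to the values of the lists was not tested. Spearman's rho between length and ratio was 0.61 and 0.65 across 8947 genes, a description of genes that share libraries and cells. Genes with longer spans in the genome, more exons and lower GC content also had higher ratios, with rho of 0.49 and 0.51, 0.41 and 0.41, and −0.32 and −0.34, and these properties go together. For the level of a gene, rho was −0.33 and −0.32. Among the 20% of genes with the highest levels (median 214 CPM), the shortest 20% had median ratios of −0.15 and −0.19 and the longest 0.26 and 0.28, and among the 20% with the lowest levels these were 0.03 and 0.01, and 0.52 and 0.55.

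**Figure D5:**
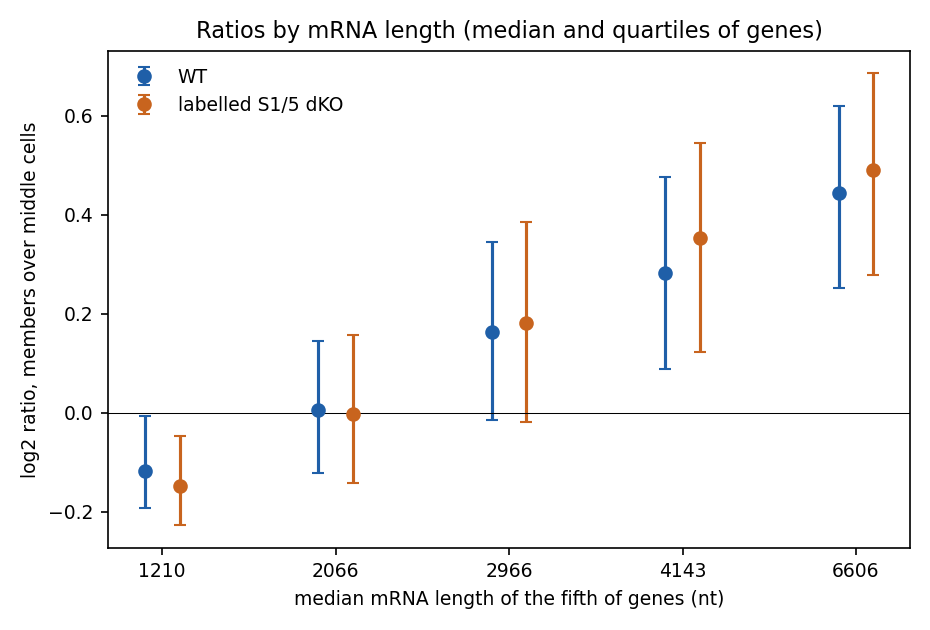
Median log2 ratio of RP-low over middle cells with the quartiles of the genes as bars (vertical axis) in 5 groups of 1789 or 1790 genes ordered by mRNA length, each labelled with its median length in nt (horizontal axis), for WT (blue) and the library labelled S1/5 dKO (orange). The medians climb from −0.12 and −0.15 in the shortest group to 0.44 and 0.49 in the longest.

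The 4 markers lay at both ends of this range. *Ranbp2* (9608 nt) and *Tet2* (9179 nt) lie in the longest group, where 58.4% of genes were called higher. *Hist1h1c* (1560 nt) and *mt-Nd6* (519 nt) lie in the shortest group, where 2.12% were.

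The genotypes were compared within RP-low cells by the ratio of the 2 libraries. Of 8580 genes with at least 100 UMIs over the RP-low cells of both libraries, 22 (0.256%) had at least a 2-fold higher level in those labelled S1/5 dKO and 22 (0.256%) a level lower by 2-fold or more. The log2 ratio of the library labelled S1/5 dKO over WT in RP-low cells was −0.89 (−1.26 to −0.54) for *Smad1* and 0.28 (−0.15 to 0.71) for *Smad5*, and −0.53 and 0.43 in middle cells. *Id1*, a BMP target, had 478 CPM in WT RP-low cells and 202 in those labelled S1/5 dKO (−1.25, −1.33 to −1.16), against −0.89 in middle cells. *Id2* had 99.3 and 24.8 CPM (−2.00, against −1.86 in middle cells) and *Id3* 155 and 86.6 (−0.84, against −0.74). *Mest*, an imprinted gene, had 18.6 and 147 CPM (2.98, 2.72 to 3.24, against 3.17 in middle cells). The markers differed less, with log2 ratios of −0.02 for *Hist1h1c*, 0.14 for *Ranbp2*, 0.20 for *mt-Nd6* and 0.30 for *Tet2*. Over 8534 genes, the genotype ratio of RP-low cells minus that of middle cells had a median of 0.01 and lay between −0.33 and 0.37 for 90% of genes. With 1 library per genotype, the genotype and the library cannot be told apart.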

How the data were processed

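The data are single-cell RNA-seq counts of 1 WT and 1 *Smad1/5*-deficient mESC library. The authors deposited raw UMI counts, made with Cell Ranger 3.0.2 on mm10 according to the submitters' processing notes, for 31053 genes, with all barcodes and without normalization. Barcodes were filtered and ranked as given in the report. The cells, markers and gene lists were chosen with earlier results of these data known. No doublets were removed and no caller was run. UMIs were summed over RP-low and middle cells and divided by the UMIs outside the 101 score genes. Log2 ratios carry exact conditional binomial intervals (95%), and the call rule used 0.5 added to each count. The depth was 10078 to 198658 UMIs per scored cell. Named genes are the 4 markers, *Smad1* and *Smad5*, the 12 highest and 12 lowest ratios (by the smaller of the 2 libraries) among genes with at least 200 UMIs, and up to 4 genes per list by UMIs or by ratio. Gene positions and mRNA lengths are those of GENCODE M21 for GRCm38, in which 31011 identifiers matched. Alternatives covered scaling (all UMIs, TMM from edgeR 4.0.16, median ratio), depth, summing, the choice of cells and score genes, and limits, and 4 were added after seeing the data. The procedure was tested on simulated data. Python 3.11.15, numpy 2.4.6, scipy 1.17.1, pandas 2.3.3, matplotlib 3.10.9 and R 4.3.3 were used. Some genes of the lists are not reported here by name.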

Additional observations from a re-analysis of the deposited data

Results flagged for a closer look

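A few genes and a list were higher in RP-low than in middle cells in one library and lower in the other, and the difference between the libraries was not tested in any of them. The 8 fibroblast genes had a summed log2 ratio of 2.171 in WT and −1.085 in cells labelled S1/5 dKO, from *Acta2*, with 48 UMIs in WT RP-low cells, 34 of them in 1 cell. In the other library, 2 middle cells held 24 and 20 *Acta2* UMIs, of 78 UMIs on the list in its middle cells. Both values thus rest on few cells. *Gadd45g*, a stress gene, had 0.7844 and −2.026, on 52 and 12 UMIs in RP-low cells, 23 of the 52 in 1 WT cell. *Ptcra* had 1.17 and −1.15, on 60 and 49 UMIs, and *Gna14* had 1.509 and −0.6906, on 60 and 24 UMIs.

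Barcodes with over 5% mt- UMIs were left out of the ranking. Of those with at least 10000 UMIs, 7 from WT and 6 from the library labelled S1/5 dKO had an RP share below the limit of the RP-low cells.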

How the results depend on the processing

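The 4 markers were picked on this comparison, so their values under other settings describe that choice. Their ratios kept their direction and stayed at least 25% higher in all 152 values under the alternatives run. The numbers of genes moved more. Per 1000000 of all UMIs, 19 genes were lower. TMM scaling gave 1110 higher and 656 lower genes, and 5 lists higher and 4 lower in place of 11 and 0. Setting the median ratio of genes with at least 500 UMIs to 0 gave 121 lower. Thinning every cell to 10000 UMIs gave 1032 higher, with 5411 genes tested. The lowest 5% of cells gave 131 lower, the lowest 20% gave 23 lower and 7 lists higher, and all other cells in place of the middle cells gave 123 lower. At least 20 UMIs per gene gave 169 lower, with 11820 genes tested in place of 8951. At least 500 UMIs per gene gave 1064 higher and 23 lower, with 5065 tested. A limit of 1.5-fold gave 618 higher and 2 lower. Without the 2-cell-like cells, an alternative chosen after seeing the data, the 2-cell-like list had −0.022 in WT. Those cells were removed for their UMIs on this list, so a fall followed from the choice, and few UMIs were left. Without cells with *Krt8* and *Krt18*, also chosen after seeing the data, *Tagln* reversed in WT, to −0.528. Between genotypes, thinning left 13 genes higher and 11 lower. The cause of these shifts was not tested, apart from the fewer genes or other limits that the settings themselves bring. With 1 limit for both libraries, 150 WT cells and 353 of the other library were taken. No paired analysis was possible because each genotype has 1 library and the labels give no replicate numbers. Counting intervals cover neither the spread between cultures nor that between clones.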
